A study of Mus musculus with 12 samples.

Results

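The Fo5 tumor and the liver of vehicle-treated mice were compared gene by gene, to describe how both tissues differ before any antibody is given. All 52636 gene identifiers of the deposited count table entered, in 6 of the 12 libraries of the series: 3 from tumor and 3 from liver. Both groups are female FVB/NJ mice that carried a Fo5 tumor, grown in the mammary fat pad from a transplanted piece of a tumor of founder line 5 of MMTV-HER2 transgenic mice. In these mice a mammary tumor virus promoter drives human HER2 in the mammary epithelium. Mice were enrolled at mean tumor volumes of about 350 to 500 mm3, received vehicle buffer alone by intravenous injection, and their organs were collected 24 h later. RNA came from dissociated tissue of 3 control mice, per the series' design text, so p-values measure the spread between mice of this line, and which liver and tumor share a mouse is not stated. The liver libraries therefore come from tumor-bearing mice, and the tumors all come from a single transplanted line. Neither the liver of a tumor-free mouse nor normal mammary gland is among the groups, and the age of the mice is not given in the labels. The 6 libraries of mice given 1 dose of 5 mg/kg of the HER2/CD3 antibody (TDB) were used to repeat the comparison, to test where the difference between tissues differs with TDB, and in an alternative fit over all 12 libraries.

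The liver parenchyma consists of hepatocytes, which secrete most plasma proteins, detoxify drugs through cytochrome P450 enzymes, make bile acids, and switch between storing and releasing glucose. Their identity is kept by a network of transcription factors that includes HNF4A and the FOXA factors. Luminal mammary epithelium secretes milk under prolactin, STAT5 and ELF5, and HER2 (Erbb2 in the mouse) is a receptor tyrosine kinase whose excess drives growth of this epithelium. Sinusoidal endothelium and Kupffer cells, the resident macrophages of the liver, line its blood channels and are largely peculiar to it.

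Counts totalled 18460159 to 20302179 in the liver libraries and 20796764 to 21954224 in the tumor libraries. Levels are given as CPM (counts scaled to a common library size) after TMM scaling, as single libraries in the order 1, 2, 3 or as mean ± SD with n = 3, and differences as log2 fold changes of tumor over liver ± SE. Of 15633 genes that passed the filter on low counts, 6371 (40.8%) were higher in tumor and 5904 (37.8%) were lower at an adjusted p under 0.05, so 78.5% of genes differed. At a fold of at least 4 as well, 3253 genes (20.8%) were higher and 2604 (16.7%) lower. For 82.3% of tested genes the 3 tumor values did not overlap the 3 liver values, and every count of members below is read against these shares. The first principal component held 96.9% of the variance between the 6 libraries, and the typical spread between mice was larger in liver (23.7%, biological coefficient of variation) than in tumor (14.6%). A few genes fill much of a liver library, the 10 largest taking 22.9% to 25.3% of its counts against 7.47% to 8.69% in tumor. The median log2 fold change over all genes was 0.08 with TMM and 1.42 when counts were divided by library size alone, and 2170 of the genes called lower turned sign there, none of them among those at least 4-fold lower. Fold changes also followed transcript length, from a median of -1.31 in the shortest of 10 length classes of protein-coding genes to 1.40 in the longest, and the same trend set liver libraries 2 and 3 apart from each other.

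**Figure D1:**
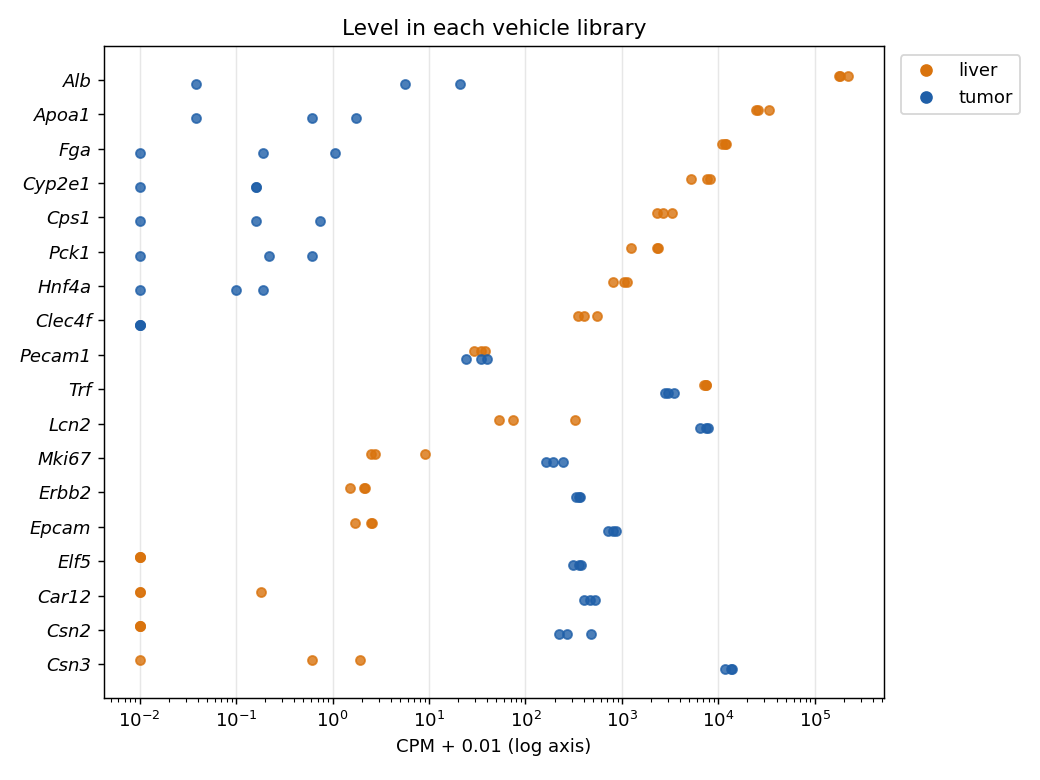
Level of 18 genes in each vehicle library, as CPM plus 0.01 on a log axis, with liver in orange and tumor in blue and 1 point per library. Genes of liver function stand high in liver and near 0 in tumor. Genes of the mammary tumor stand higher in tumor, but Lcn2 and, at a lower level, Mki67 are also present in liver. Pecam1 overlaps and Trf differs little. Among the tumors, albumin is highest in library 2 and lowest in library 3.

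The labels were checked first against the transcripts that define both tissues. Albumin (Alb, chr5:90460897-90476602, GRCm38), the main plasma protein, read 177014, 183142 and 222280.0 CPM in the liver libraries and 5.58, 21.1 and 0.0288 CPM in the tumor libraries. It took 11.2% to 14.3% of all counts of a liver library. The 16 hepatocyte markers were all lower in tumor, with sums of 290036 to 332195 CPM in liver and 16.2 to 44.6 CPM in tumor. That remainder was 0.00524% to 0.0145% of the liver sum and was largest in tumor library 2. The milk protein gene Csn3 read 0.598, 1.93 and 0 CPM in liver and 13428, 11602 and 13968 CPM in tumor, where it was the most abundant of the genes at least 16-fold higher (log2 fold change 13.93 ± 0.90, adjusted p = 1.09e-06). Of 16 luminal markers 13 were higher in tumor, 2 were lower and 1 did not pass the test.

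Erbb2, the gene of the receptor that the tumor line was made with (chr11:98412470-98437716, GRCm38), read 2.14, 1.51 and 2.14 CPM in liver and 356, 364 and 336 CPM in tumor. The 3 tumor values lay within a narrow range far above liver (log2 fold change 7.50 ± 0.20, adjusted p = 1.44e-08). The transgene is human HER2, and the part that its reads have in the counts of mouse Erbb2 was not tested. Erbb3, the kinase-poor partner of HER2, was higher by much less (96.8 ± 49.5 CPM in liver, 226 ± 20.1 in tumor, log2 1.22 ± 0.35), and with length removed that difference did not pass the test (0.68, adjusted p = 0.103). Erbb4 had 3 counts in the liver libraries together and 17.2 ± 1.74 CPM in tumor, a ratio of 211 (95% interval 72.1 to 1024), whereas Egfr, abundant in hepatocytes, was lower (from 319 to 77.3 CPM, log2 -2.04 ± 0.14). Of the 21 tested HER receptors, ligands and adaptors 14 were higher and 5 lower (17 and 3 under library size alone). Among the ligands, Nrg1 (30.2 CPM in tumor, log2 6.01 ± 0.38) and Nrg2 (0 counts in liver, 20.0 CPM in tumor, at least 244-fold higher) stood on the tumor side and Nrg4 (5.16 against 0.149 CPM, log2 -5.07 ± 0.39) on the liver side. Bounds of this kind set the 3 liver libraries together at a floor of 3 counts and cover counting error only.

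Genes of the plasma proteins that the liver secretes were lower in tumor. All 22 plasma protein genes were lower in tumor, with a median log2 fold change of -14.27 against 0.08 over all genes, and so were the 17 coagulation genes (median -13.92, or -13.81 with genes without tumor counts set at their bound) and the 21 complement components (median -10.40). Of 19 tested apolipoprotein and lipoprotein assembly genes 18 were lower. The 10 most abundant genes at least 16-fold lower in tumor were albumin, fetuin-A (Ahsg), Apoa1, Apoe, selenoprotein P (Selenop), Serpina3k, hemopexin (Hpx), Apoa2, transthyretin (Ttr) and the vitamin D-binding protein Gc. Apoa1, the main protein of high-density lipoprotein, read 24797, 33678 and 25889 CPM in liver and 0.6, 1.75 and 0.0288 CPM in tumor (log2 -15.11 ± 1.14, adjusted p = 2.82e-06). As with albumin, the tumor value was highest in library 2 and lowest in library 3, and no tumor value came near the liver values. The part of carried-over liver transcripts in these tumor values was not tested.

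The fibrinogen chains Fga, Fgb and Fgg stood at 11582, 10777 and 10499.5 CPM in liver and at 0.413, 0.423 and 3.38 CPM in tumor, Fgg the highest there. Prothrombin (F2) read 4629, 4886 and 4256 CPM in liver and 0.15, 0.272 and 0 CPM in tumor. F11 and F13b, a contact factor and the carrier subunit of factor XIII, had 0 counts in tumor and were at least 5498-fold and 14384-fold higher in liver. In the complement list the terminal component C8b had 0 tumor counts (at least 17868-fold higher in liver), while the chains of C1q, which macrophages make, were lower by less (C1qa 200.3 and 48.4 CPM, log2 -2.05 ± 0.23). The lipid carrier Apoe and the iron carrier transferrin (Trf) were still abundant in tumor. Apoe read 28123, 30069 and 24731 CPM in liver and 313, 196 and 265 CPM in tumor (log2 -6.74 ± 0.42). Trf read 7034, 7442 and 7481 CPM in liver and 3025, 2819 and 3429 CPM in tumor (log2 -1.24 ± 0.25), a difference that turned to 0.0942 when counts were divided by library size alone. The largest fitted differences on the liver side belonged to Serpina1c, Apcs (serum amyloid P), Cyp2b9, Inmt and C8b. Serpina1c and Apcs each had 1 count in tumor, which gives a ratio of liver to tumor of 237292 (95% interval 42588 to 9372640.0) and of 192675 (95% interval 34580.2 to 7610350.0), and Cyp2b9 and Inmt had none (at least 21827-fold and 19138-fold higher in liver). Apcs read 1243, 3277 and 1245 CPM in liver, and without liver library 2 its ratio was 125900 (95% interval 22594.9 to 4972950). Serpina1c belongs to a cluster of near-identical genes whose reads cannot be assigned with certainty.

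The acute phase list, the plasma proteins that the liver raises in inflammation, was lower in 21 of 24 members and higher in 2. Both exceptions were genes that epithelium also makes. Lipocalin 2 (Lcn2), which binds bacterial siderophores, read 53.0, 324 and 74.8 CPM in liver and 7491, 6406 and 7716 CPM in tumor (log2 5.58 ± 0.73, adjusted p = 9.83e-05; 6.80 without liver library 2). Lbp, the lipopolysaccharide-binding protein, rose from 313 ± 41.0 to 853 ± 149.5 CPM (log2 1.45 ± 0.20). Serum amyloid A was uneven among the livers. Saa1 read 63.8, 5247 and 93.3 CPM in liver and 20.9, 13.1 and 16.4 CPM in tumor, and Saa2 read 21.4, 3494 and 28.1 and 26.1, 18.9 and 22.9 CPM, so that liver library 2 carried nearly all of the liver signal. Orm2 (27.4, 195 and 37.2 CPM) and Prtn3 (1.45, 44.0 and 3.37 CPM) were highest in the same library. With liver library 2 left out the log2 fold changes of Saa1 and Saa2 were -2.24 (adjusted p = 2.7e-05) and -0.14 (adjusted p = 0.498), against -6.75 and -5.70 with it, so the call for Saa2 rested on that library. That call was also lost without tumor library 2 (adjusted p = 0.0556) or 3 (adjusted p = 0.0543), with the replicate number as a block (adjusted p = 0.35), with limma-voom (adjusted p = 0.275), with no filter on low counts (adjusted p = 0.144) and with limma on log2 FPKM (adjusted p = 0.253 and 0.269 with 0.1 and 1 added). The call for Saa1 was lost with limma-voom (adjusted p = 0.0643), with no filter (adjusted p = 0.0816) and with limma on log2(FPKM + 1) (adjusted p = 0.0557). Prtn3 was called lower (log2 -4.21 ± 1.15) but not with limma-voom (adjusted p = 0.0558), with no filter (adjusted p = 0.104) or with limma on log2 FPKM (adjusted p = 0.0764 and 0.152).

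Drug and bile acid metabolism were lower in tumor without exception. All 29 cytochrome P450 and drug metabolism genes (median log2 -13.45, or -13.26 with genes without tumor counts at their bound) and all 17 bile acid genes (median -13.05, or -12.69) passed the test, all of them at least 4-fold lower. Cyp2e1, the ethanol-oxidising P450, read 7684, 5182 and 8092 CPM in liver and 0.15, 0.151 and 0 CPM in tumor (log2 -16.03 ± 0.67, adjusted p = 7.34e-08). Cyp3a11, the main inducible drug-metabolising P450, read 7061, 5992 and 4851 CPM in liver and 0.06, 0.423 and 0 CPM in tumor. Cyp7a1, whose hydroxylation of cholesterol limits how fast bile acids are made, read 91.6, 570.3 and 112 CPM in liver, again highest in library 2, and had 0 tumor counts (at least 8578-fold higher in liver, or 3457-fold without that library). The sodium-dependent bile acid importer Slc10a1 had 845 CPM in liver and a single count in tumor. The mildest member was Por, the electron donor shared by all microsomal P450 enzymes (379 ± 58.4 CPM in liver, 49.3 ± 2.53 in tumor, log2 -2.94 ± 0.17).

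Amino acid and fat catabolism showed the same direction with different depth. All 27 urea cycle and amino acid genes were at least 4-fold lower (median log2 -11.56, or -10.54 with the gene without tumor counts at its bound). Cps1, which fixes ammonia in the urea cycle, read 3306, 2663 and 2319 CPM in liver and 0.15, 0.725 and 0 CPM in tumor (log2 -13.20 ± 0.84). The later urea cycle enzymes kept more: Ass1 read 678 and 21.2 CPM (log2 -5.00 ± 0.35) and Asl 832 and 49.5 CPM (log2 -4.07 ± 0.22), with the reservation that Ass1 has a near-identical processed copy that also took counts. All 20 fatty acid oxidation and ketogenesis genes were lower and at least 4-fold so, but with a median of only -3.93. The extremes were Fabp1, the fatty acid carrier of hepatocytes (11735 against 0.362 CPM, log2 -14.98 ± 0.95), and the trifunctional protein subunit Hadha (558 against 139 CPM, log2 -2.01 ± 0.17).

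Glucose release was lower and lipid synthesis was mixed. Of 13 tested gluconeogenesis and glycogen genes 10 were lower and 3 higher. Pck1, the cytosolic enzyme that starts gluconeogenesis, read 2344, 1249 and 2329 CPM in liver and 0.21, 0.604 and 0 CPM in tumor (log2 -12.82 ± 0.80). The 3 genes on the tumor side were the mitochondrial form Pck2 (6.37 against 73.3 CPM, log2 3.52 ± 0.16) and, at small differences, Ppargc1a (log2 1.51 ± 0.23) and Foxo1 (log2 1.17 ± 0.32). With the trend of length removed, 2 of them still passed, and Foxo1 stood at 0.16 (adjusted p = 0.654). Of 22 genes of cholesterol and fatty acid synthesis 5 were higher and 11 lower, a split that became 14 higher and 8 lower under library size alone and 2 higher and 18 lower with length removed, and 3 higher and 12 lower without liver library 1 or without tumor library 2. The largest differences kept their sign and their call under both settings. Insig1, the sterol sensor of the endoplasmic reticulum, was lower (417 against 19.9 CPM, log2 -4.39 ± 0.19), as was Hmgcs1 (log2 -3.28 ± 0.21), an early enzyme of cholesterol synthesis. The desaturase Scd2 was higher (5.72, 2.77 and 5.67 CPM in liver, 697, 796 and 846 CPM in tumor, log2 7.36 ± 0.32).

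The transcription factors that define hepatocytes were lower too. Of 21 hepatocyte transcription factors and nuclear receptors 19 were lower, with a median log2 of -9.56 (-8.06 with genes without tumor counts at their bound). Hnf4a, the master regulator of hepatocyte identity, read 1058, 799.6 and 1140.5 CPM in liver and 0.09, 0.181 and 0 CPM in tumor (log2 -13.37 ± 0.52, adjusted p = 4.81e-08). Foxa2, a factor that opens chromatin, read 33.8, 30.0 and 51.8 CPM in liver and had 0 counts in tumor (at least 1315-fold higher in liver). The bile acid sensor Nr1h4 (152 against 0.195 CPM, log2 -9.56 ± 0.40) and the xenobiotic sensor Nr1i3 (354 against 0.0602 CPM, log2 -12.42 ± 0.39) went the same way. Cebpa, shared with fat and myeloid cells, kept 32.8 of 548 CPM (log2 -4.06 ± 0.16).

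The RefSeq promoter table (GRCm38.p6), which holds 300 bases around each start (250 before and 50 after), was searched on both strands for CAAAGTCCA, a site of HNF4A. It occurred in 27 of 1027 windows (2.63%) of genes at least 16-fold lower in tumor, in 0.161% of 1243 windows of genes at least 16-fold higher and in 0.475% of all 32851 windows. None of the 19 windows of plasma protein genes and none of the 15 of coagulation genes held it (0%). Other motifs searched were also more frequent in the lower set than in windows of tested protein-coding genes. GTTAAT stood at 13.2% against 4.86% and TATAAA at 18.1% against 7.81%, so the excess was not particular to CAAAGTCCA. A match is a stretch of letters, not a measured binding site.

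**Figure D2:**
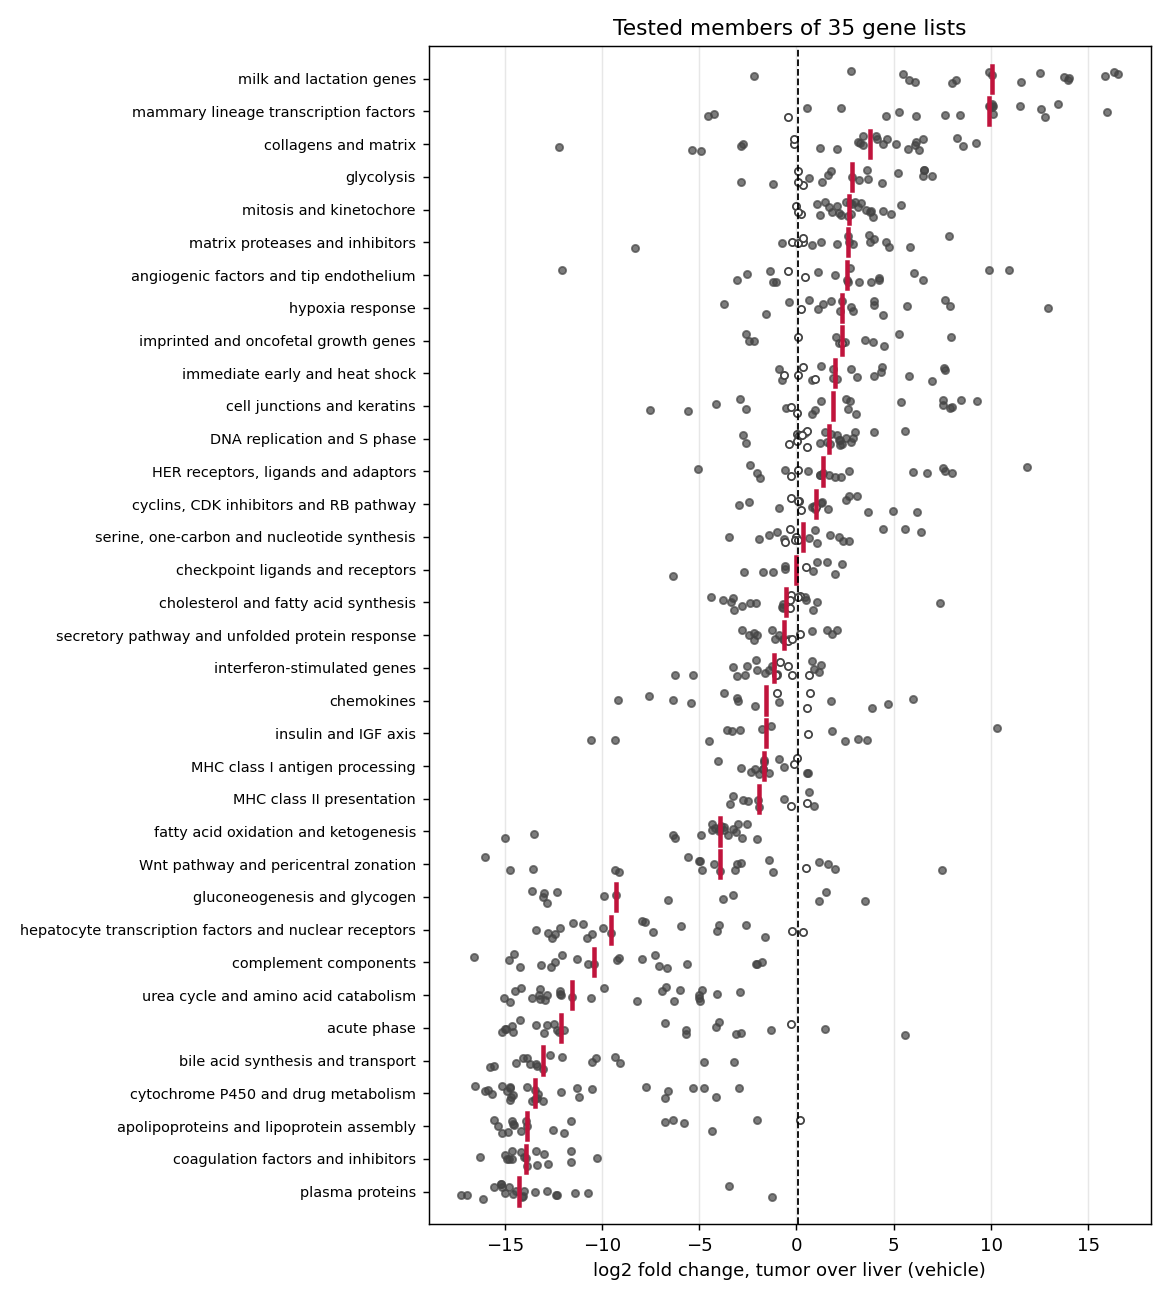
Log2 fold change of tumor over liver for each tested member of 35 gene lists, 1 point per gene, with the list median as a bar and the median of all tested genes (0.08) as a dashed line. Filled points passed the test and open points did not. All points of the plasma protein, coagulation, P450 and bile acid lists lie below 0, and most points of the milk, mammary factor and mitosis lists lie above it.

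For many steps of metabolism the genome holds a liver form and a form used by other cells. Of 20 pairs labelled in this way, 14 had the general form higher in tumor and the liver form lower, both past the test. Both members were tested in 19 pairs. Levels are compared here as CPM per kb of exons. The pairs include connexins and cadherins, which are no metabolic steps, and some labels are loose. Cdh2, labelled the liver form, read 3.47 in liver, below Cdh1 at 13.3. Cpt1c, labelled general, stayed below Cpt1a in both tissues (0.101 against 27.6 in liver, 0.402 against 3.17 in tumor). Among general forms, hexokinase 2 (Hk2) went from 0.128 to 12.002 CPM per kb (log2 6.54 ± 0.20), hexokinase 1 (Hk1) from 0.598 to 54.2 (log2 6.50 ± 0.29) and Aldoa from 21.4 to 447 (log2 4.38 ± 0.20). The glucose transporter Slc2a2 went from 63.7 to 0.00698 CPM per kb and Slc2a1 from 4.33 to 55.9 (log2 3.69 ± 0.22). Liver pyruvate kinase (Pklr) went from 59.3 to 0.0185 CPM per kb and the muscle and tumor form Pkm from 1.48 to 54.3 (log2 5.20 ± 0.15). In the transport and pyruvate kinase steps the summed level of liver and general form differed less between tissues than either form did. Glycogen synthase (Gys1 log2 5.22 ± 0.21, Gys2 with 79.1 CPM in liver and 1 count in tumor), glycogen phosphorylase (Pygb 5.07 ± 0.17, Pygl -3.26 ± 0.26), arginase (Arg2 5.20 ± 0.50, Arg1 -6.71 ± 0.28) and the adhesion molecules Cdh1 (2.53 ± 0.20) and Cdh2 (-2.92 ± 0.29) divided the same way. Pairs that did not included phosphofructokinase, where both Pfkp (log2 6.57 ± 0.24) and the liver form Pfkl (log2 3.62 ± 0.21) were higher, and stearoyl-CoA desaturase, where Scd2 was higher but the liver form Scd1 did not pass the test (log2 -0.34 ± 0.26, adjusted p = 0.244). Scd1 was called lower with length removed (-0.64, adjusted p = 0.0465) and without liver library 2 (-0.53, adjusted p = 0.045), which would divide the pair, and higher under library size alone (0.99, adjusted p = 0.00662).

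**Figure D3:**
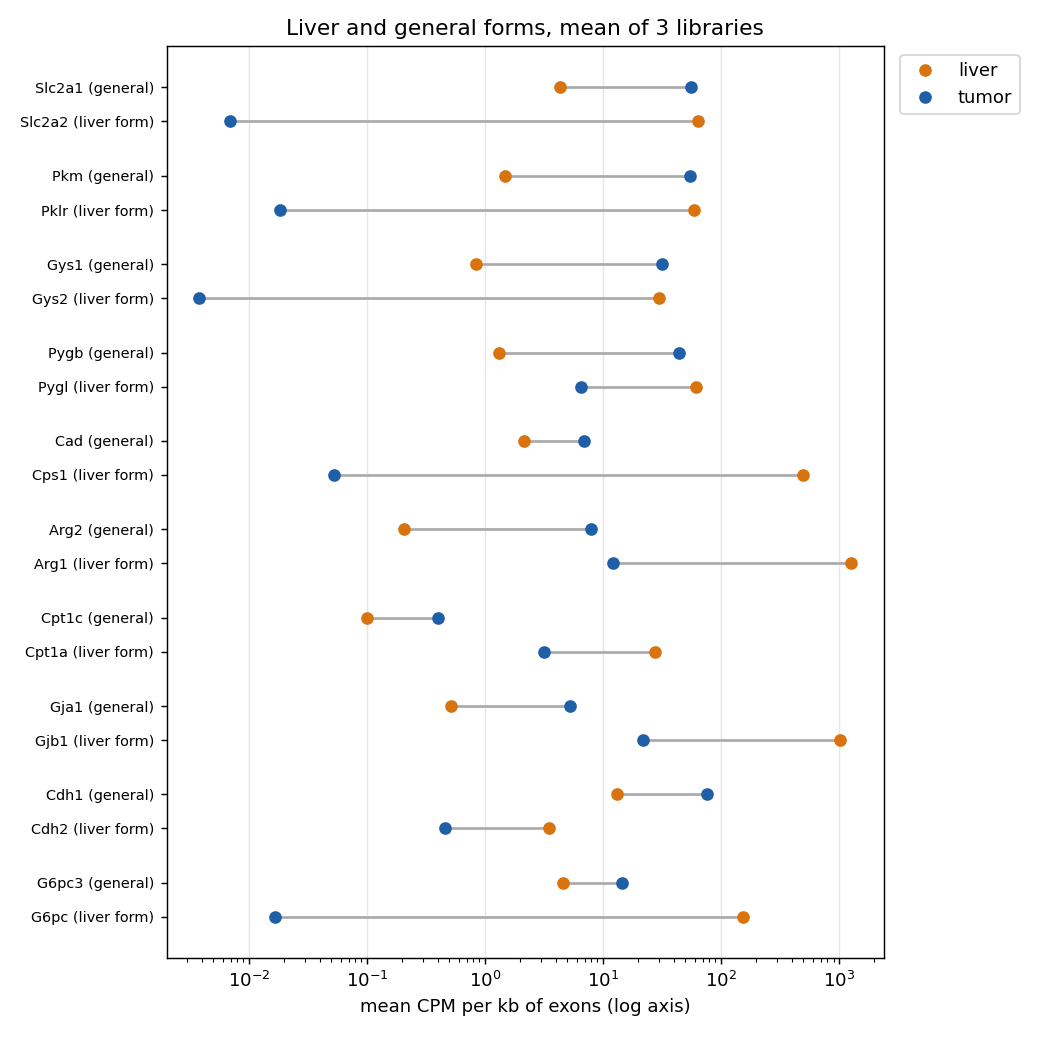
Level of the liver form and the general form in liver (orange) and tumor (blue) for 10 of the 14 pairs called in opposite directions, as mean CPM per kb of exons on a log axis, with a line joining both tissues for each gene. In each of the 10 pairs the general form moves right from liver to tumor and the liver form moves left. These labels are loose for Cdh1 and Cdh2 and for Cpt1c and Cpt1a, and the cadherin and connexin pairs are no metabolic steps.

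The tumor expressed a broad set of milk genes. Of 17 tested members 16 were higher, all at least 4-fold, and 7 listed members had 0 counts in liver. After Csn3 the most abundant were osteopontin (Spp1, 69.4, 69.1 and 53.4 CPM in liver, 3270.1, 2549.7 and 7205 CPM in tumor, log2 6.09 ± 0.47) and lactoferrin (Ltf, 0, 1.43 and 0.0766 CPM in liver, 1297, 2899 and 300.2 CPM in tumor). Lactoferrin was uneven among the tumors, with library 2 highest and library 3 lowest, and all 3 lay far above liver. The caseins Csn1s1, Csn1s2a and Csn2 read 775, 381 and 487, 681, 314 and 374 and 473, 222 and 269 CPM in the 3 tumors. Csn2 had 0 liver counts and was at least 3920.5-fold higher in tumor. Lalba, the lactose synthase subunit, read 423, 215 and 427 CPM, and Btn1a1 and Lao1, which coat milk fat and produce peroxide in milk, had 0 liver counts (at least 5354-fold and 6156-fold higher). Wap, the whey acidic protein, reached only 6.33, 4.77 and 4.43 CPM. The prolactin receptor Prlr went the other way, at 512, 443 and 600.1 CPM in liver and 108, 112 and 123 CPM in tumor (log2 -2.18 ± 0.17, adjusted p = 3.51e-06).

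Casein promoters, from the same RefSeq table, are shown because STAT5, which prolactin activates, is known to bind them at TTCTNNGAA. Each line gives the 200 bases before the start, 5′ to 3′, with matches in capitals.
Csn2 (- strand, chr5:87699426-87699625): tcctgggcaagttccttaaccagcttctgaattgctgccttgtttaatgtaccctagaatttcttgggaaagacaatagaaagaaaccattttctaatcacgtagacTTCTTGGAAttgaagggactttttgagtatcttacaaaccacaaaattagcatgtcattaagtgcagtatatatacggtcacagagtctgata
Csn1s1 (+ strand, chr5:87666008-87666207): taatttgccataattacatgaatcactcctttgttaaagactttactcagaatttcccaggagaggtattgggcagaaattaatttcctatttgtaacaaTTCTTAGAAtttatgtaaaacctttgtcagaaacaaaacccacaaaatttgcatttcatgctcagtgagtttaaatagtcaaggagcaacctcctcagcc
The motif occurred in 5 of 17 windows (29.4%) of the milk list, of which 14 of 18 genes had a window, and in 5.19% of all windows. Its share was 4.18% in the windows of genes at least 16-fold higher in tumor and 4.36% in those of all tested protein-coding genes.

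Mammary lineage transcription factors were higher in 18 of 21 tested cases, with a median log2 of 9.89 (6.17 with genes without liver counts at their bound). Elf5, the factor of secretory alveolar cells, had 0 counts in each liver and read 375, 359 and 314 CPM in tumor (at least 4265-fold higher). Sox10 read 358, 348 and 377 CPM in tumor and 0, 0.168 and 0 in liver, where it had 2 counts. Ehf (424 ± 91.1 CPM in tumor, log2 10.10 ± 0.49), Trps1 (356 ± 74.7, log2 10.06 ± 0.39), Gata3 (82.7 ± 4.33, with 3 counts in liver) and Sox9 (115 ± 8.74, log2 4.58 ± 0.23) were also abundant. The estrogen receptor Esr1 was lower (49.5, 45.1 and 51.2 CPM in liver, 2.34, 1.33 and 2.44 CPM in tumor, log2 -4.57 ± 0.25), as was Tbx3 (14.4 against 0.755 CPM, log2 -4.24 ± 0.33), and the progesterone receptor Pgr had 0 liver counts and 0.0192 CPM in tumor and was not tested. Stat5a differed little (log2 0.54 ± 0.20). That call was lost without liver library 1, tumor library 1 or tumor library 2 (log2 0.44 to 0.59), and the sign turned with length removed (-0.21).

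Luminal epithelial markers were higher in tumor than in liver. Epcam read 2.56, 2.52 and 1.68 CPM in liver and 869, 804 and 711 CPM in tumor (log2 8.46 ± 0.26). The receptor Kit, a mark of luminal progenitors and of mast cells, read 5.64, 3.36 and 8.35 and 610.1, 641 and 555 CPM (log2 6.70 ± 0.33), and the other mast cell markers did not pass the filter. Wfdc18 (3365, 2996 and 2115 CPM in tumor, log2 12.47 ± 0.69), Plet1 (2241 CPM, log2 8.90 ± 0.31) and the chitinase-like protein Chil1 (5095, 5755 and 6581 CPM, log2 11.74 ± 0.71) were among the 10 most abundant genes of the tumor side. The remaining ones were Igfbp5 (6373, 7277 and 7812 CPM), Aldoc (2745, 2651 and 2125 CPM) and the mitochondrial carrier Ucp2 (1502, 1782 and 1270.3 CPM). The simple keratins Krt8 (log2 1.25 ± 0.15) and Krt18 (log2 0.94 ± 0.19), which hepatocytes also make, were higher by little, and Krt19 was lower (2.69 against 0.144 CPM, log2 -4.14 ± 0.80). Of 7 tested basal and myoepithelial markers 5 were higher in tumor, all at least 4-fold, and 1 was lower. The list summed to 26.9 to 43.0 CPM in liver and 47.3 to 80.0 CPM in tumor. The basal keratins Krt5 and Krt14 read 0.0502 and 0.307 CPM in tumor and were not tested. The basal factor Trp63 read 5.89 CPM against 0 in liver. Of 22 tested junction and keratin genes 14 were higher and 6 lower: Cldn7 (log2 7.98 ± 0.34), Cldn4 (log2 7.52 ± 0.43) and the integrin Itgb4 (log2 7.54 ± 0.21) on the tumor side, and the hepatocyte connexin Gjb1 (1745 against 37.0 CPM, log2 -5.56 ± 0.25) and Cldn14 (log2 -7.53 ± 0.30) on the liver side.

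Transcripts of dividing cells were higher in tumor. All 23 mitosis and kinetochore genes that passed the test, of 26, were higher (median log2 2.70), and 18 were at least 4-fold higher. Mki67, a marker of cycling cells, read 2.48, 2.77 and 9.11 CPM in liver and 164, 243 and 194 CPM in tumor (log2 5.37 ± 0.47, adjusted p = 7.22e-06), highest in liver library 3, without which the log2 fold change was 6.26. Topoisomerase Top2a read 6.32, 8.91 and 10.6 and 123, 142.78 and 124 CPM (log2 3.91 ± 0.21), and the mitotic kinase Plk1 1.54, 1.85 and 5.44 and 31.1, 31.9 and 27.2 CPM (log2 3.33 ± 0.40, or 4.15 without liver library 3). Ccnb2, the cyclin of mitotic entry, differed less (9.83 ± 4.01 CPM in liver, 31.4 ± 4.57 CPM in tumor, log2 1.67 ± 0.30). With length removed 23 of 26 were still higher. Of 26 replication and S phase genes 17 were higher and 2 lower. The ribonucleotide reductase subunit Rrm2 (6.05 against 97.0 CPM, log2 4.01 ± 0.36) and the methylation keeper Uhrf1 (0.411 against 19.9 CPM, log2 5.58 ± 0.29) led the higher ones, and the replication factor Mcm10 (log2 -2.62 ± 0.27) was among the lower ones.

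Promoters of 3 mitotic genes are shown with CCAAT and TTTGAA in capitals (ATTGG and TTCAAA on the other strand). CCAAT is the box of the NF-Y factor. TTTGAA is the letter pattern of the cell cycle homology region, which the DREAM and MuvB complexes bind. Each match is a stretch of letters, and whether it is a bound site was not tested. In Ccnb2 the marked TTTGAA lies upstream of every marked CCAAT.
Ccnb2 (- strand, chr9:70421555-70421754): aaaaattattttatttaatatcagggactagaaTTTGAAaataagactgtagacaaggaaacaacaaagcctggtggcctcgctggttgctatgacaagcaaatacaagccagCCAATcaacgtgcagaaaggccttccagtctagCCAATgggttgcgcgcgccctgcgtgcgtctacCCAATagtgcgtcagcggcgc
Cdc20 (- strand, chr4:118437344-118437543): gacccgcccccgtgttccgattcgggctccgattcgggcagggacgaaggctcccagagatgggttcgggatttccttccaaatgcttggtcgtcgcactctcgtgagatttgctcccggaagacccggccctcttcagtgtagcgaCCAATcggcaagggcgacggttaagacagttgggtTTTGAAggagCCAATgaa
Cdk1 (- strand, chr10:69352913-69353112): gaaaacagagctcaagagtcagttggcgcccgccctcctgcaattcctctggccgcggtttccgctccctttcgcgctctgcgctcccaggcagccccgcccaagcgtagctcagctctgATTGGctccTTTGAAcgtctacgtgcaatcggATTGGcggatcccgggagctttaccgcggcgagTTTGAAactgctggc
CCAAT occurred in 16 of 20 windows (80.0%) of the mitosis list and in 37.4% of all windows, and TTTGAA in 14 of 20 (70.0%) and in 17.9%. Over the windows of tested protein-coding genes the shares were 37.4% and 12.3%. They were 35.8% and 11.6% in windows of genes at least 16-fold higher in tumor. In windows of genes at least 16-fold lower they were 41.8% and 19.4%. Of the 26 genes 20 had a window. The promoter of Plk1, which is not shown, held CCAAT but no TTTGAA in the 200 bases before its start.

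Several inhibitors of the cell cycle were higher as well. Cdkn2a, the INK4 and ARF gene, read 0.427, 0.168 and 0.23 CPM in liver and 20.9, 16.4 and 22.9 CPM in tumor (log2 6.17 ± 0.33), and its neighbour Cdkn2b read 0.305 and 9.61 CPM (log2 4.97 ± 0.34). Cdkn1a was higher (log2 3.10 ± 0.22), and the imprinted inhibitor Cdkn1c was lower (log2 -2.46 ± 0.43). Myc rose from 5.44 ± 1.04 to 69.0 ± 8.11 CPM (log2 3.66 ± 0.20) and its relative Mycl fell from 6.77 to 0.864 CPM (log2 -2.96 ± 0.31). In all 12 of 20 genes of this list were higher and 3 lower, or 11 and 6 with length removed.

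Glycolysis and the hypoxia response were higher in tumor. Of 19 tested glycolytic genes 14 were higher and 2 lower, Slc16a1 (log2 -2.84 ± 0.19) and, by a difference that turned to 0.11 under library size alone, Pfkfb4 (log2 -1.22 ± 0.37), whose call was also lost without liver library 3 (-1.05, adjusted p = 0.0522). Aldoc read 15.7, 28.2 and 15.9 CPM in liver (log2 6.98 ± 0.35) and the phosphofructokinase Pfkp 2.51 and 239.7 CPM. Gapdh read under 0.1 CPM in both tissues and Pgk1 and Pgam1 under 10 CPM. These genes have many near-identical copies, among which their reads may be split, and their levels are uncertain. Of 19 hypoxia-responsive genes 15 were higher and 3 lower (17 and 1 under library size alone). The membrane carbonic anhydrases Car12 (0.171, 0 and 0 CPM in liver, 408, 465 and 519.6 CPM in tumor, a ratio of 8527 (95% interval 2360.4 to 70412)) and Car9 (0.171, 0.252 and 0.153 and 38.3, 42.4 and 58.3 CPM, log2 7.88 ± 0.33) had the largest folds. Egln3, an oxygen-sensing prolyl hydroxylase that HIF induces, read 26.3, 16.8 and 18.4 and 1010.2, 942 and 1168 CPM (log2 5.67 ± 0.26). Angptl4 (log2 -3.73 ± 0.47, or -4.47 without tumor library 3) and Bnip3 (log2 -1.59 ± 0.25) were lower, Bnip3 not under library size alone (-0.25, adjusted p = 0.357). Pdk1 passed the test on the liver side (log2 -0.38 ± 0.13, adjusted p = 0.0222). Its call was lost with upper quartile scaling (adjusted p = 0.0975), with no filter (adjusted p = 0.137), with all 12 libraries (adjusted p = 0.0524), with the replicate block (adjusted p = 0.0515) and without liver library 1 or any single tumor library (adjusted p from 0.0533 to 0.086), and under library size alone it was higher (0.96). Of 20 genes of serine, one-carbon and nucleotide synthesis 10 were higher and 5 lower (16 and 2 under library size alone), among them Asns (log2 5.60 ± 0.30) and Psat1 (log2 4.47 ± 0.39) on the tumor side and Shmt1 (log2 -3.45 ± 0.15) on the liver side.

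Most matrix genes were higher in tumor. Of 26 collagens and matrix genes 19 were higher and 5 lower (median log2 3.77). Col1a1, the chain of fibrillar collagen, read 2.73, 4.03 and 4.90 CPM in liver and 215, 156 and 457 CPM in tumor (log2 6.14 ± 0.47), highest in tumor library 3, as were Col1a2 (208, 131 and 437 CPM) and Col12a1 (47.2, 28.2 and 144 CPM). The laminin chain Lama5 (log2 8.55 ± 0.26), thrombospondin Thbs1 (log2 8.26 ± 0.49) and tenascin Tnc (log2 6.52 ± 0.65) were higher. The cartilage-type collagens Col9a1 and Col11a1 had 0 liver counts and, with Lao1, Btn1a1 and the kallikrein Klk10, were the 5 genes with the largest fitted differences on the tumor side. Col9a1 read 810.5, 718 and 877 CPM (at least 9816-fold higher), Col11a1 593, 727 and 969 CPM (at least 9363-fold) and Klk10 467, 573 and 378 CPM (at least 5756-fold). The 5 lower genes of the list were the hepatocyte products Vtn (5043 against 1.07 CPM, log2 -12.20 ± 0.46) and Fn1 (log2 -2.76 ± 0.42), the endostatin precursor Col18a1 (log2 -4.89 ± 0.34), and the fibroblast proteoglycans Dcn (log2 -5.39 ± 0.90) and Lum (log2 -2.84 ± 0.65, or -1.50 with adjusted p = 0.0521 under library size alone). Of 19 tested matrix proteases and inhibitors 13 were higher, led by the epithelial protease St14 (237 CPM in tumor, log2 7.83 ± 0.24), and 2 were lower.

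Growth factor genes also divided. Igf1 read 1630.2, 1409.5 and 1419 CPM in liver and 2.13, 1.69 and 2.99 CPM in tumor (log2 -9.35 ± 0.32), and its receptor Igf1r went from 1.85 to 22.8 CPM (log2 3.61 ± 0.26). The binding protein Igfbp5 was higher (log2 10.29 ± 0.59) and Igfbp1 (37.9 CPM in liver, 2 counts in tumor) and Igfbp4 (log2 -4.49 ± 0.31) were lower. In all 5 of 14 genes of the axis were higher and 8 lower, or 6 and 6 under library size alone. Of 21 genes of the Wnt pathway and pericentral zonation 16 were lower and 4 higher. Both the pericentral enzyme Glul (log2 -5.01 ± 0.23) and the Wnt targets Axin2 (log2 -3.94 ± 0.28) and Notum (63.7 against 0.111 CPM, log2 -9.12 ± 0.44) were lower, and Wnt7b was at 5.82 CPM in tumor and a single count in liver. Of 13 tested imprinted and oncofetal genes 8 were higher and 3 lower, all 11 at least 4-fold. Igf2r (log2 3.91 ± 0.20) and Gpc3 (log2 4.52 ± 0.39) were among the higher ones, and Igf2 and Afp did not pass the filter. Immediate early and heat shock genes were higher in 14 of 20 and lower in 2 (19 and 0 under library size alone), with Fos at 1.87 and 39.4 CPM (log2 4.37 ± 0.32) and Nr4a1 at 1.61 and 90.7 CPM (log2 5.80 ± 0.26). These genes respond to tissue handling, whose part was not tested. Of 18 genes of the secretory pathway and unfolded protein response 11 were lower and 4 higher, which became 4 lower and 10 higher under library size alone.

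Markers of blood vessels and immune cells were read as levels of whole tissue, in which fewer cells of a type and less RNA per cell cannot be told apart. The sinusoidal endothelium list was lower in 14 of 15 tested genes, the Kupffer cell list in 9 of 9 and the stellate cell list in 9 of 10, with none higher. Clec4f, the Kupffer cell lectin, read 405, 554 and 352 CPM in liver and had 0 tumor counts (at least 14663-fold higher in liver), and so did the sinusoidal lectin Clec4g (276, 348 and 255 CPM, at least 9846-fold higher). The scavenger receptor Stab2 kept 0.0388 of 38.8 CPM. The general endothelial list was lower by less (median log2 -1.08 against -5.75 for the sinusoidal list). Pecam1 read 34.4, 28.993 and 38.3 CPM in liver and 34.6, 24.1 and 39.6 CPM in tumor (log2 -0.05 ± 0.21, adjusted p = 0.831), and Cdh5 read 35.6, 23.4 and 41.1 and 35.1, 25.6 and 44.6 CPM (log2 0.07 ± 0.26, adjusted p = 0.809), so the groups overlapped in both. Divided by library size alone both were higher in tumor (log2 1.28 and 1.40), and with length removed Pecam1 was lower (log2 -0.63, adjusted p = 0.0208) and Cdh5 stood at -0.01. Of 16 genes of that list 10 were lower and 1, Flt1, was higher, but 5 were lower and 5 higher under library size alone. Angiogenic factors and tip cell genes were higher in 13 of 21 and lower in 6 (15 and 3 under library size alone). Placental growth factor Pgf (0.0854, 0.168 and 0 CPM in liver, 178, 171 and 166 in tumor), apelin Apln (109 CPM in tumor, log2 9.89 ± 0.47), Cxcr4 (log2 6.48 ± 0.37) and Esm1 (log2 6.02 ± 0.50) led them, and Vegfa was at 83.9 ± 10.6 CPM in liver and 182 ± 44.0 CPM in tumor (log2 1.12 ± 0.19). Vegfc (log2 -2.52 ± 0.38) and the hepatocyte ribonuclease Ang (log2 -12.03 ± 0.38) were on the liver side.

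**Figure D4:**
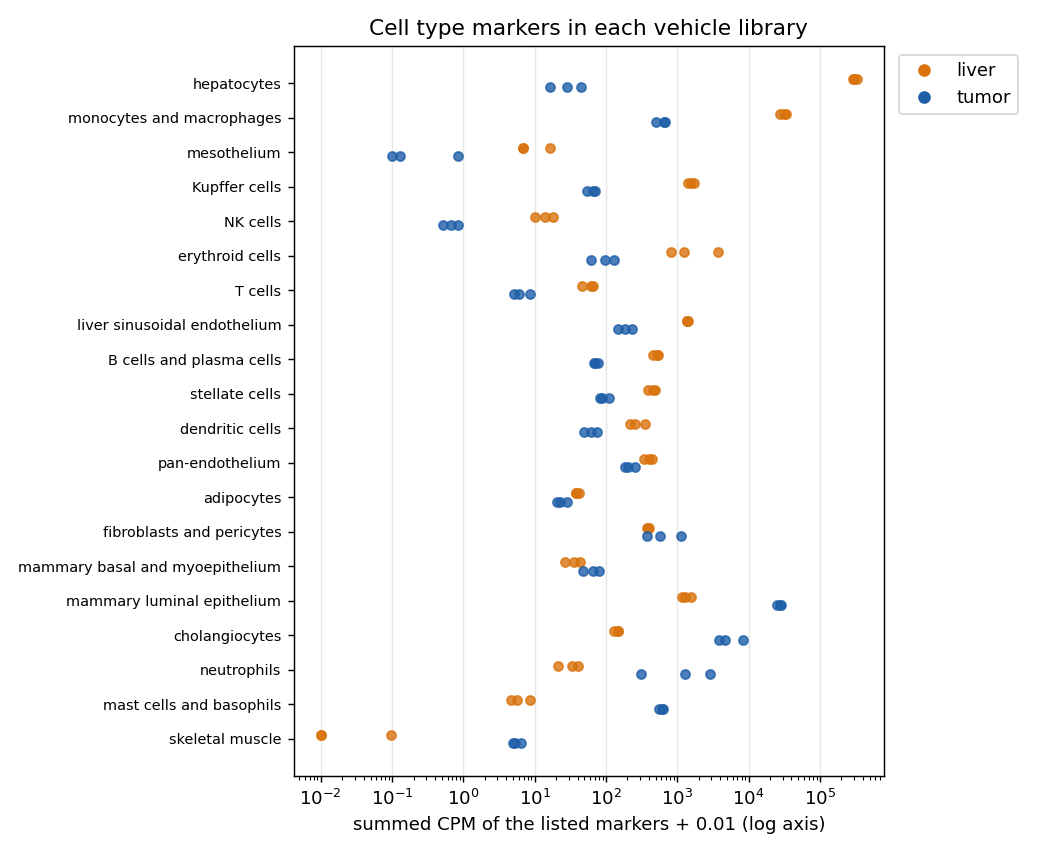
Summed CPM of each of 20 cell type marker lists in each vehicle library, on a log axis, with liver in orange and tumor in blue and 1 point per library. Kupffer, sinusoidal, stellate, T, NK, B cell and hepatocyte sums lie higher in all 3 livers. Luminal, cholangiocyte, basal, neutrophil, mast cell and skeletal muscle sums lie higher in all 3 tumors. Ltf, also a milk gene, makes up nearly all of the neutrophil sum in tumor (308 to 2903 CPM). Of 6 tested neutrophil genes 4 were lower and 1 higher. Kit, also a luminal marker, makes up nearly all of the mast cell sum in tumor. The monocyte and macrophage list holds Apoe and Arg1, which hepatocytes also express and which make up most of its liver sum. Spp1 alone makes up 66.0% to 86.3% of the cholangiocyte sum in tumor, which without it was 58.8 to 92.3 CPM in liver and 1142 to 1353 CPM in tumor. Of 9 tested members of that list 7 were higher and 2 lower in tumor. Epcam and Sox9 on it also stand on mammary lists and Krt19 on it was lower, so its sum does not mark bile duct cells alone.

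Lymphocyte transcripts were lower in tumor. The T cell list summed to 46.0 to 66.3 CPM in liver and 5.11 to 8.61 CPM in tumor, and 8 of 11 tested members were lower and 1 higher. Cd3e, a chain of the CD3 complex, read 3.50, 1.85 and 2.07 CPM in liver and had 0 counts in tumor (at least 82.8-fold higher in liver), and Cd3d read 2.56, 2.94 and 2.45 and 0.03, 0.0604 and 0 CPM. The kinase Zap70 read 32.4, 35.7 and 21.6 and 0.21, 0.151 and 0.0288 CPM (log2 -7.80 ± 0.42). All 4 tested NK cell genes and all 8 tested B cell and plasma cell genes were lower. Myeloid genes were lower by less: Csf1r read 74.4 ± 17.6 CPM in liver and 23.7 ± 3.74 CPM in tumor (log2 -1.65 ± 0.21) and Adgre1 25.8 ± 1.51 and 9.40 ± 1.79 CPM (log2 -1.46 ± 0.19), whereas Cd14 was higher (9.32 ± 1.03 against 128 ± 5.71 CPM, log2 3.78 ± 0.15) and Trem2 too (log2 1.55 ± 0.33). Under library size alone neither Csf1r (-0.32, adjusted p = 0.212) nor Adgre1 (-0.12, adjusted p = 0.564) passed. Of 14 tested monocyte and macrophage genes 9 were lower and 3 higher, or 4 and 5 under library size alone. Ltf, on the neutrophil list, was high in tumor, but S100a9 (16.6 against 0.743 CPM, log2 -4.46 ± 0.54) and Retnlg were lower and Ly6g had 0 counts in all 6 libraries. Hemoglobin transcripts were lower as well (Hbb-bs log2 -4.52 ± 0.60), and fibroblast genes divided into 8 higher and 2 lower of 12.

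Antigen presentation genes were lower in tumor. B2m, the shared light chain of MHC class I, read 2588, 2504 and 2568 CPM in liver and 185, 112 and 163 CPM in tumor (log2 -4.06 ± 0.26, adjusted p = 1.04e-06). The heavy chains H2-K1 (log2 -2.12 ± 0.19) and H2-D1 (log2 -1.92 ± 0.20), members of a family of near-identical genes, were lower by less, and 12 of 16 class I genes were lower and 2 higher. For class II, 7 of 11 tested genes were lower and 2 higher, with the invariant chain Cd74 at 448, 252 and 253 CPM in liver and 66.8, 24.7 and 51.4 CPM in tumor (log2 -2.74 ± 0.38). Under library size alone the split was 5 lower and 5 higher for class I and 4 and 4 for class II (with length removed 7 and 4), and B2m (log2 -2.72) and Cd74 (log2 -1.40) were lower there too. Interferon-stimulated genes were lower in 13 of 22 and higher in 4, with Iigp1 at 608, 572 and 601 and 9.93, 3.05 and 10.5 CPM (log2 -6.24 ± 0.46), and chemokines were lower in 9 of 16 tested, Cxcl12 the most abundant (736 against 9.11 CPM, log2 -6.34 ± 0.25), and higher in 4, Cx3cl1 the most abundant (log2 5.97 ± 0.27). Under library size alone 7 interferon-stimulated genes were lower and 7 higher, and 7 chemokines lower and 6 higher. The interferon-stimulated genes that were higher fell from 4 to 2 without liver library 1 or 3, to 0 without tumor library 1 and to 1 without tumor library 3, with 13 to 15 lower. With length removed 2 were higher and 11 lower. Of 12 tested checkpoint genes 5 were higher and 6 lower, a balance that turned to 8 higher and 3 lower under library size alone. Galectin 9 (Lgals9) led the lower ones (1137 against 13.7 CPM, log2 -6.37 ± 0.26) and Cd276 the higher ones (5.93 against 30.1 CPM, log2 2.34 ± 0.16).

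The comparison was repeated in the 6 libraries of mice given TDB, which share no library with it. There 5432 of 15953 tested genes (34.1%) were higher in tumor and 5349 (33.5%) lower. Of 15305 genes tested in both, 4772 were higher in both, which is 76.8% of those higher with vehicle and 93.3% of those higher with TDB, and 4899 were lower in both (84.4% and 93.4%). Calls in opposite directions were fewer: 3 genes were higher with vehicle and lower with TDB, and 38 were lower with vehicle and higher with TDB. The difference between tissues differed between TDB and vehicle for 412 of 16557 genes (2.49%), 303 of them (1.83%) with a higher and 109 (0.658%) with a lower tumor-to-liver ratio under TDB. That count moved between 241 and 696 when single libraries were left out: it was lowest without tumor TDB replicate 2 and highest without liver TDB replicate 3. For Alb the tumor-to-liver log2 fold change was -16.19 with TDB and for Csn3 11.49, and neither difference between treatments passed the test (adjusted p = 0.769 and 0.451).

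**Figure D5:**
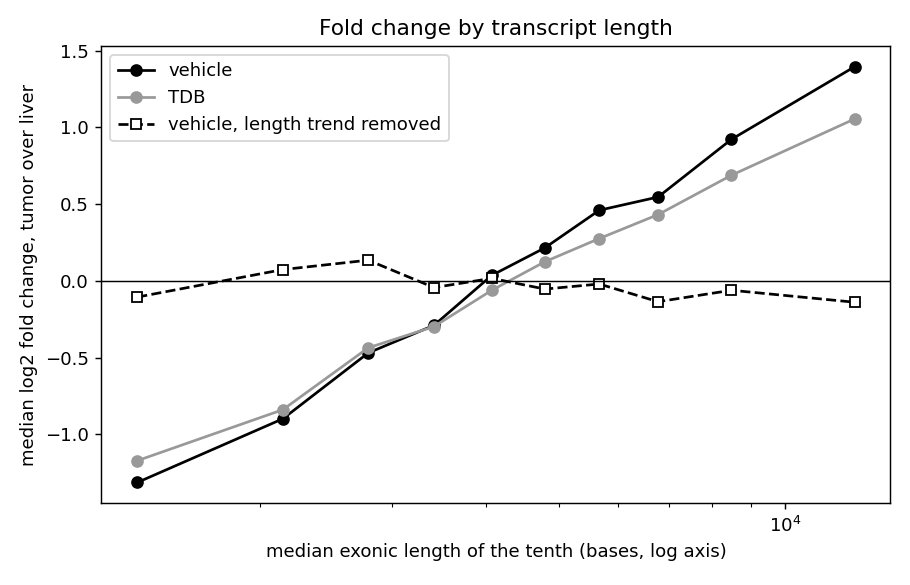
Median log2 fold change of tumor over liver in 10 classes of protein-coding genes ordered by exonic length, with vehicle in black, TDB in grey and vehicle with the trend removed as open squares, against the median length in bases on a log axis. The vehicle medians climb from -1.31 to 1.40 and the TDB medians from -1.17 to 1.06, and those with the trend removed stay between -0.14 and 0.14.

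Besides Saa1, Saa2, Prtn3 and Orm2, the fifth of the most uneven liver genes was Rec114 (5.38, 35.7 and 1.68 CPM), again with the highest value in library 2, and its log2 fold change of -0.45 turned to 1.57 (adjusted p = 0.0177) without that library. In tumor the most uneven were A2m (37.988, 2.48 and 7.71 CPM), Ugt3a2 (5.40, 2.30 and 28.9), Armcx2 (4.38, 4.35 and 38.9), Cilp (14.2, 2.84 and 29.1) and Thbs4 (7.11, 2.12 and 23.1). Armcx2, Cilp, Thbs4 and Ugt3a2 were highest in tumor library 3, and A2m in library 1. The log2 fold change of Armcx2 was 1.54 (adjusted p = 0.106) and stood at -0.31 without library 3. Of the hepatocyte markers that passed the test, the most abundant in tumor were Ahsg (13.8, 10.1 and 7.82 CPM), Alb, Hal (6.78, 6.86 and 8.11 CPM), Apoa1 and Fgb. Ahsg and Hal varied less among the tumors than Alb and Apoa1 did. Luminal markers that passed the test with the highest liver levels were Prlr, Krt18, Lcn2, Cdh1 and Krt8.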

How the data were processed

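RNA was measured by bulk RNA-seq in liver and tumor of 3 vehicle-treated mice, and the labels give each library its group. The authors deposited raw counts per Ensembl gene and FPKM values; GSNAP, limma and GRCm38 are named in the submitters' processing notes, without versions or roles, and for the counter, the annotation and the strand setting they are silent. Of 8746 genes checked in the deposited FPKM values, 84.2% were scaled by a length within 1% of the genomic span, so FPKM served only as an alternative. Of 52636 identifiers 52489 matched GENCODE M21, and 27288 had no counts in the 6 libraries.

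Genes were filtered (filterByExpr, minimum count 10, total 15), scaled by TMM and tested with edgeR 4.0.16 (quasi-likelihood, robust, Benjamini-Hochberg, R 4.3.3) between the 3 and 3 libraries. Adjusted p-values come from this test unless an alternative setting or the difference between TDB and vehicle is named beside them, and then from that fit. SE is the log2 fold change divided by the root of F. CPM uses TMM library sizes. A gene with 0 counts in a tissue got a bound at a floor of 3 counts, and one with 1 to 3 counts a ratio with an exact 95% counting interval. Alternatives used limma 3.58.1 on log2(FPKM + 1) and log2(FPKM + 0.1), DESeq2 1.42.0, other scalings and filters, each library left out and an offset for length, the last chosen after seeing the data. On simulated counts for 15293 genes the fit recovered 78% of 100 genes changed 2-fold and all 100 changed 4-fold, with 8 false calls. All other genes were set equal in both tissues there, with the same spread for every gene and as many genes raised as lowered. The simulation therefore did not cover the scaling between 2 tissues in which 78.5% of genes differed.

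Genes were named by a rule: the 10 most abundant per direction with a log2 change of at least 4, the 5 largest changes per direction above 10 CPM, list members beside their list's counts, the opposite tissue's markers, and the 5 most uneven genes per tissue. The members and lists were chosen with earlier results of these data known. Same-numbered libraries did not deviate together (correlations -0.042, -0.0729 and 0.116), so numbers were not used as pairs. Some genes are not reported here.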

Additional observations from a re-analysis of the deposited data

Results flagged for a closer look

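The difference between tumor and liver itself differed between TDB and vehicle for 412 genes by edgeR's interaction test. Among the genes named above it differed for 16, given here as the log2 tumor-to-liver difference with TDB minus that with vehicle, with no explanation. Genes of antigen presentation and interferon response had higher ratios with TDB: B2m by 3.20 (edgeR adjusted p = 6.62e-04), H2-K1 by 1.91, H2-D1 by 2.02, Cd74 by 2.95 and Iigp1 by 5.38 (edgeR adjusted p = 5.59e-04). T cell genes did as well, Zap70 by 3.68 and Cd3d by a fitted 4.01. The size for Cd3d is uncertain, since the vehicle tumors together had 3 counts of it. For Cd3e the fitted value of 7.60 is no size, since the vehicle tumors had 0 counts. The myeloid receptor Cd14 (2.87), galectin 9 (Lgals9, 3.55) and arginase (Arg1, 2.35) also had higher ratios. Ratios were lower with TDB for the S phase genes Uhrf1 (-4.30, edgeR adjusted p = 7.35e-04) and Rrm2 (-2.47), the glycolytic genes Pfkp (-2.07) and Pkm (-1.39), and Lbp (-1.53).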

How the results depend on the processing

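Of 214 named genes tested, 192 kept their direction and call under every alternative run for single genes. Divided by library size alone, 10495 genes were higher and 2772 lower, so 79.1% of calls were higher against 51.9% with TMM, and 6100 were at least 4-fold higher and 1542 lower. A test against a 2-fold change left 3733 lower. With limma on log2(FPKM + 1) 383 genes were at least 4-fold higher and 1046 lower, and with log2(FPKM + 0.1) 1548 were higher; the added value shrinks folds of low genes. Leaving out single libraries gave 6048 to 6688 higher and 5568 to 6090 lower. The count of genes that differed between TDB and vehicle ran from 241 to 696 when single libraries were left out: 270 without liver vehicle replicate 1, 264 without tumor vehicle replicate 2, and 261 and 241 without tumor TDB replicates 1 and 2. With the replicate number as a block it was 258, and the vehicle comparison gave 6193 higher and 5680 lower; the numbers share no stated mouse. Leaving out 1 library moved the fold change of 75 named genes by over 1.5 times, 47 of them with under 50 counts in a tissue. Of the other 28, 2 turned sign (Armcx2 and Rec114). Beside those described with their values, the log2 fold change went to 3.48 for Col12a1, 3.56 for Col1a2, -6.63 for Dcn, -3.39 for Fn1 and -7.64 for Ugt3a2 without tumor library 3, to -12.43 for Fgg without tumor library 1, to 12.80 for Chil1, 7.17 for Cxcr4, 5.17 for Psat1, 4.60 for Rrm2, -1.48 for Prtn3 and -3.62 for Hbb-bs without liver library 2, and to 3.35 for Flt1 and 9.12 for Thbs1 without liver library 3. Alb ran from -16.08 to -13.83 without tumor library 2 or 3, and Apoa1, Apoa2, Gc, Hpx and Serpina3k moved by 1 or both of these libraries.

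Some log2 fold changes turned sign. Under library size alone they were 0.0942 for Trf, 0.96 for Pdk1, 0.99 for Scd1, 0.11 for Pfkfb4, 1.28 for Pecam1 and 0.92 for Rec114. Pecam1 was also 0.0766 with upper quartile scaling and 0.0364 with no filter, and ran from -0.20 to 0.14 when single libraries were left out. Cdh5 ran from -0.14 to 0.26 in that way and was -0.00957 with length removed, and Stat5a was -0.21 with length removed. Rec114 was 0.57 with limma-voom, 0.0300 with log2(FPKM + 0.1), 0.42 with the replicate block and 0.78 with length removed, and ran from -0.96 without liver vehicle replicate 3 to 1.57 without liver vehicle replicate 2. Armcx2 ran from -0.31 without tumor vehicle replicate 3 to 2.00. The cause was not tested. Depth limits genes with few counts in a tissue, whose folds are bounds or ratios.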

Other observations

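The groups below were chosen after their values were seen and are given as values. Subunits of the proton pump V-ATPase numbered 19 tested, of which 8 were higher in tumor, 5 lower and 6 not called. At least 4-fold higher were 4 of them, a share close to the 20.8% of all tested genes, and 1 was at least 4-fold lower. The tissue-restricted subunits Atp6v1b1 and Atp6v1c2 had 0 liver counts and 229, 238 and 218 and 229.6, 246 and 133 CPM in tumor (at least 2789-fold and 2462-fold higher). Foxi1, a forkhead factor known from proton-secreting epithelial cells, also had 0 liver counts and read 195, 244 and 205 CPM in tumor (at least 2622-fold higher). Of 13 tested carbonic anhydrases 7 were higher and 6 lower. Car6, the secreted form, read 0, 0.504 and 0 CPM in liver and 501, 438 and 260.5 CPM in tumor, and Car3, abundant in liver, read 3065, 2988 and 3328 and 0.12, 0.393 and 0 CPM.

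Of 12 tested SOX factors 6 were at least 4-fold higher and 0 at least 4-fold lower. Sox2 had 0 liver counts and read 23.8, 38.3 and 11.5 CPM in tumor (at least 297-fold higher), and Sox4 went from 1.82 to 219 CPM (log2 6.91 ± 0.25). Of 35 tested collagens 29 were higher, all at least 4-fold, and 3 lower. Genes of chromosome 19 had a median log2 fold change of -0.864 (-0.876 with the length trend removed and -0.865 with TDB), those of chromosome 12 a median of 0.832 (0.513 and 0.658) and those of the X chromosome 0.845 (0.695 and 0.587).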
